A study of Mus musculus with 12 samples.

Results

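The chow-fed livers make up 6 of the 12 samples of a mouse study of diet-induced steatohepatitis, and they were taken by their labels, not by any measured value. All 6 came from wild-type C57BL/6 mice on a normal chow diet. In 3 of them the diet had been given for 1 month to mice then 3 months old, and in the other 3 for 3 months to mice then 6 months old. The other 6 samples of the study received another diet for the same times and were not analysed here. Each library holds total RNA of a whole flash-frozen liver sample after depletion of ribosomal RNA. The labels name the replicates of a group as separate samples. The design text of the series calls them biological replicates.

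The liver parenchyma is built mainly of hepatocytes, which secrete most plasma proteins, make bile acids, dispose of ammonia through the urea cycle, and modify drugs and other foreign compounds with cytochrome P450 enzymes. Along each lobule the hepatocytes divide this work, with urea production and gluconeogenesis stronger near the portal vein, and glutamine synthesis and much P450 activity stronger near the central vein. Kupffer cells, sinusoidal endothelial cells, stellate cells and bile duct cells fill the rest of the tissue. The questions addressed were which RNAs dominate such a liver, how the counts divide among these functions, and how far 6 livers of the same diet differ from each other.

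The 6 libraries held between 13733485 and 17982271 counts over 16035 listed genes. Levels are given as the deposited FPKM, the count scaled to the bases of the gene model and to the library's total, as a mean ± SD over the 6 libraries. A CV is the SD as a percentage of the mean. Spearman correlations between libraries, over the genes with a mean of at least 1 FPKM, lay between 0.963 and 0.981. The lowest values belonged to 1-month replicate 1, whose 5 pairs gave 0.963 to 0.973, against 0.971 to 0.981 for the other 10 pairs. The chi-square per gene between pairs, about 1 where the same library is sequenced again, was 11.4 to 47.6. All 6 were therefore counted as separate libraries. This value cannot tell a repeat library of the same liver from a library of another liver. That check says nothing on how far the livers differ. Because 1-month replicate 1 stood apart in several gene groups, values that rest on it are given with its own level beside those of the other libraries. In bulk tissue, fewer cells of a type and less RNA per cell cannot be told apart.

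The 4 promoters below belong to the first 4 protein-coding genes by FPKM that come from different gene families, lie outside the mitochondrial genome and have an entry in the promoter table used. They are shown because these genes carry much of the liver's output. Alb encodes albumin, Apoa2 an apolipoprotein of high-density lipoprotein, Mup3 a major urinary protein that carries pheromones, and Ahsg fetuin-A, a plasma glycoprotein that binds calcium phosphate. Each sequence is from RefSeq on GRCm38.p6, runs 5′ to 3′ on the gene's strand, and covers 250 bases before to 50 bases after the annotated start.
Alb (chr5:90460620-90460919, plus strand): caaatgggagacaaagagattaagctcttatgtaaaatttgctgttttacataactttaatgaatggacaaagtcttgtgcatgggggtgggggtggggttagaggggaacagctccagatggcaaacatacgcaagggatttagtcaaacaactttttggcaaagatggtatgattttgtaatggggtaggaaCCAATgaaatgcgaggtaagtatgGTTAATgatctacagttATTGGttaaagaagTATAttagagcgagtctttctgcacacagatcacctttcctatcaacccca
Apoa2 (chr1:171224804-171225103, plus strand): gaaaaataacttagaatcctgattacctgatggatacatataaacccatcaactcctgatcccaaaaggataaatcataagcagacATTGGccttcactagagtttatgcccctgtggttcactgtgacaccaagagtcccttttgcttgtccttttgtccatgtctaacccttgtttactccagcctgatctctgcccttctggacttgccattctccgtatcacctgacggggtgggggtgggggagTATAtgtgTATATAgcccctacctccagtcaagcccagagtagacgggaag
Mup3 (chr4:62087268-62087567, minus strand): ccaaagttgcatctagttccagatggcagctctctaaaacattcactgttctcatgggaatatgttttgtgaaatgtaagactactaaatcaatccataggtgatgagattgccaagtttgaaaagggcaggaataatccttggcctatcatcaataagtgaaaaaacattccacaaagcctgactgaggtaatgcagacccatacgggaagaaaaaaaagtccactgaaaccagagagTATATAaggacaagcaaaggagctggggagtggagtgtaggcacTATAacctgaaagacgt
Ahsg (chr16:22891765-22892064, plus strand): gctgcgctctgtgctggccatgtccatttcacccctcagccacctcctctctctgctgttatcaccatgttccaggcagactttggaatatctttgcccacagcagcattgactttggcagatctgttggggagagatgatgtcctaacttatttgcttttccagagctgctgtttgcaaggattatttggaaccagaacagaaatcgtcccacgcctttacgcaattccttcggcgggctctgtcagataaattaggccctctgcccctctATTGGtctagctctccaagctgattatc
Capitals mark CCAAT and GTTAAT on either strand (written ATTGG and ATTAAC where they lie on the opposite one), and TATA from 60 bases before to 50 bases after the start. TATA reads the same on both strands. GTTAAT is the half-site of the liver factor HNF1. The motifs did not overlap each other in these 4 windows, apart from TATA copies that overlap within a run.

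In the Alb promoter CCAAT began 56 bases before the start, GTTAAT 32 bases before it a CCAAT of the opposite strand 15 bases before it and TATA 1 base before it. The Apoa2 and Mup3 promoters also held TATA copies near the start, and the Ahsg window held none of TATA or GTTAAT. RefSeq places the Alb start 19 bases before the gene start in the deposited table, so distances depend on the annotation. A narrower TATA window, 45 to 15 bases before the start, held no TATA in any of these 4 promoters, and the wider window was chosen after the sequences were seen.

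Across all 10668 protein-coding genes with a promoter entry, 7.46% held TATA in the wider window and 3.89% in the narrower one. Among the 42 genes at or above 1000 FPKM the shares were 40.5% and 16.7%. GTTAAT was found in 31.0% of those 42 promoters, in 10.7% of the 290 at 100 to 1000 FPKM, and in 4.61% of all. The median promoter held 4 CG pairs at or above 1000 FPKM, 10.5 at 100 to 1000 FPKM and 20 over all genes. CCAAT was spread more evenly, in 50% of the promoters at or above 1000 FPKM and 38.6% of all. Over the genes at or above 100 FPKM, GTTAAT stood in 29.7% of 74 promoters of plasma protein genes and in 8.53% of 258 other promoters. TATA in the wider window stood in 33.8 and 20.2% of them, but in the narrower window in 10.8 and 13.6%. CCAAT stood in 41.9 and 50.8%. The median promoter held 3 CG pairs in the plasma protein genes and 13 in the others, and related genes of a family were counted singly. These shares describe letters in a window and were not tested.

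Albumin RNA ranked 1 of the listed genes by mean FPKM and by counts. In 1-month replicates 2 and 3 and in 3-month replicate 2 it ranked 2 by FPKM, behind the short gene model mmu-mir-689-2. Alb (chr5:90460889-90476603, plus strand, mm10) reached 26916, 23983 and 27020 FPKM in 1-month replicates 1, 2 and 3, and 26874, 26067 and 25647 FPKM in 3-month replicates 1, 2 and 3. Its mean of 26084 ± 1166 FPKM (SD, n = 6) was 8974 times the median listed gene, which stood at 2.91 FPKM. The libraries overlapped fully between the months, and the CV was 4.47%. Alb alone took 5.33% ± 0.24 of all counts.

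Of the 30 genes with the highest mean FPKM, 17 encode plasma proteins or lipoprotein components, or belong to the secreted major urinary proteins. Serpina3k, a serine protease inhibitor of clade A, ranked 5 by FPKM at 10270 ± 2315. It was listed at 12941, 11648 and 11609 FPKM in the 1-month libraries and at 6425, 9442 and 9556 FPKM in the 3-month libraries. The months were not tested against each other here. Apoa2 followed at 10003 ± 751 FPKM and Apoa1, the main protein of high-density lipoprotein, at 7101 ± 1236 FPKM. Mup3 reached 6842 ± 1373 FPKM, and Ahsg 6551 ± 711 FPKM. Apoc1, an apolipoprotein of several lipoprotein classes, stood at 5214 ± 228 FPKM with a CV of 4.38%.

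The transport proteins Trf (transferrin, for iron), Gc (the vitamin D binding protein), Hpx (hemopexin, for heme) and Ttr (transthyretin, for thyroid hormone and retinol) had means of 4712 ± 720, 3638 ± 254, 3259 ± 1005 and 2978 ± 443 FPKM. Hpx was the most uneven of them, at 4971 FPKM in 1-month replicate 1 and 2281 to 3829 FPKM in the others. The 3 fibrinogen chains were listed at 3245 ± 497 (Fgb), 1841 ± 216 (Fgg) and 1753 ± 188 FPKM (Fga). All 3 were highest in 1-month replicate 1, with 3-month replicate 1 next.

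The metabolic enzymes in the first 30 were few. Mat1a, which makes the methyl donor S-adenosylmethionine, had a mean of 4342 ± 765 FPKM, and Cyp2e1, a P450 that oxidises ethanol, 4306 ± 788 FPKM. Cyp2e1 was at 2801 FPKM in 1-month replicate 1 and at 4299 to 5088 FPKM in the other 5. Fabp1, the fatty acid binding protein of the liver, was listed at 3442 ± 900 FPKM and Cps1, the entry enzyme of the urea cycle, at 2745 ± 426 FPKM. The mitochondrially encoded mt-Co1, a subunit of cytochrome oxidase, reached 4860 ± 594 FPKM. The mitochondrial ribosomal RNA mt-Rnr1 varied more, from 1388 to 3207 FPKM. It was high in 1-month replicates 2 and 3 and in 3-month replicate 2, at 3111 to 3207 FPKM, and at 1388 to 1763 FPKM in the other 3. The libraries were depleted of ribosomal RNA, and the part of that depletion in the level and spread of mt-Rnr1 was not tested.

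**Figure D1:**
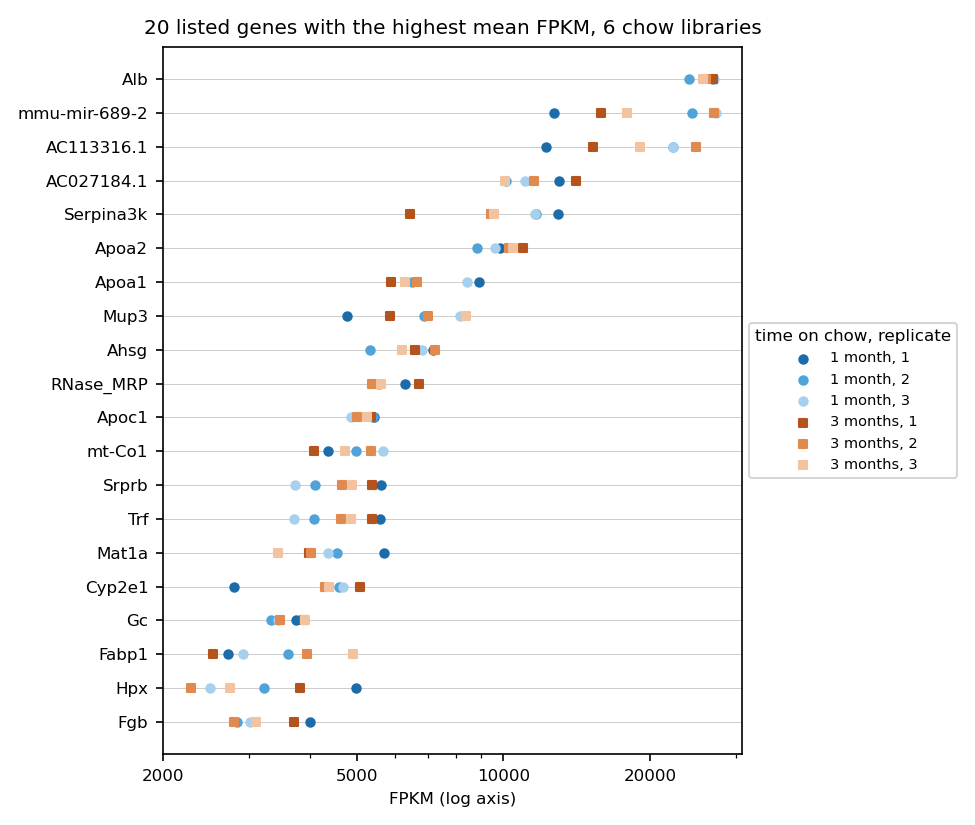
FPKM (log axis) of the 20 genes with the highest mean, each point a library, with circles for 1 month and squares for 3 months of chow. Alb lies between 23983 and 27020 FPKM in all 6 libraries, while the short RNAs listed as mmu-mir-689-2 and AC113316.1 spread widely.

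The ranks were similar in every library. Between 27 and 29 of these 30 genes were among the first 30 of each single library, and between 91 and 97 of the first 100 among the first 100. Of the 30, 24 are protein-coding in GENCODE M21 and 6 are not or were not matched. Among those 6 are the RNA components of 2 ribonucleoproteins, RNase P (listed as AC027184.1, now Rpph1) at 11653 ± 1611 FPKM and RNase MRP (now Rmrp) at 5845 ± 531 FPKM. Ranks 2 and 3 by FPKM went to mmu-mir-689-2, a gene model of 57 bases, at 20874 ± 6200 FPKM, and AC113316.1, of 82 bases, at 19330 ± 4801 FPKM. By counts, which do not divide by length, they ranked 107 and 81. AC151602.1, with 109 bases that lie wholly in exons of the ferritin gene Ftl1, ranked 24 by FPKM and 426 by counts.

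Long genes moved the other way. Apob, the structural protein of very-low-density lipoprotein, with 13934 bases of gene model, ranked 45 by FPKM at 1610 ± 193 and 2 by counts, at 2.25% ± 0.27. The first 10 by counts were Alb, Apob, Serpina3k, Trf, Cps1, a gene listed as Srprb, Mat1a, Ahsg, Apoa1 and C3, the central complement component. The gene listed as Srprb, with 1.43% ± 0.22 of the counts, carries an identifier that M21 names Gm20425. Its exons lie for 98.9% within exons of Trf on the same strand, and its level of 4732 ± 724 FPKM stood beside 4712 ± 720 FPKM for Trf. A separate identifier also listed as Srprb, a subunit of the signal recognition particle receptor, had a mean of 4.44 FPKM. Reads of Trf and of the overlapping model cannot be told apart in these counts.

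Counts were concentrated in few genes. The first 10 genes of a library held 18% ± 0.97 of its counts, the first 100 held 43.7% ± 1.60 and the first 1000 held 73.0% ± 1.08 (SD, n = 6). On the mean shares, 168 genes held 50% of all counts, 3766 held 90% and 9667 held 99%. The number behind 50% was 133 in 1-month replicate 1, 169 and 160 in the other 1-month libraries, and 188, 179 and 172 in the 3-month libraries. It was lowest in 1-month replicate 1, and without that library the mean shares gave 175.

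**Figure D2:**
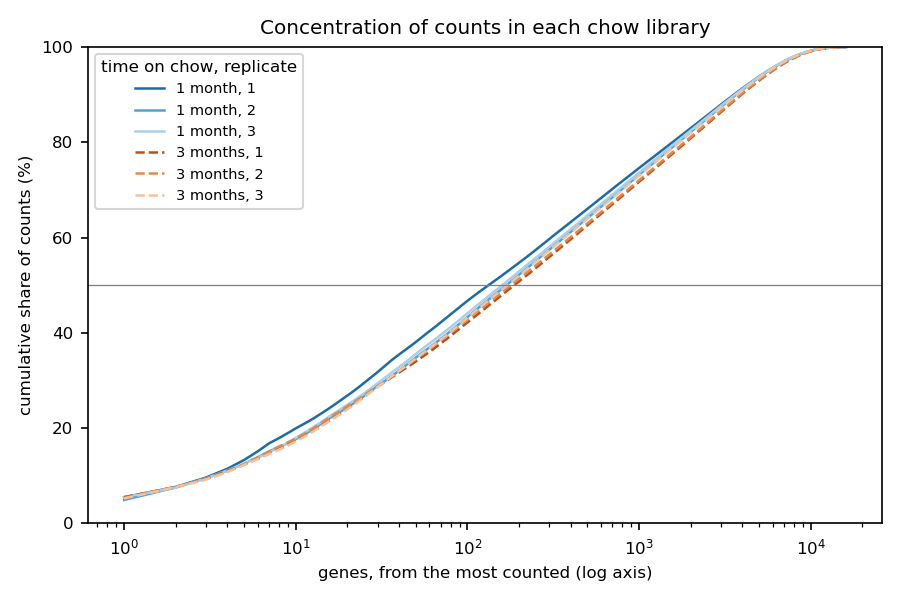
Cumulative share of counts (%) against the number of genes, counted from the most abundant (log axis), with 1 line for each chow library. The lines cross 50% between 133 and 188 genes, with 1-month replicate 1 first.

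A mean of at least 1 FPKM was reached by 11260 genes, and 10379 reached it in every library. The 69 genes at or above 1000 FPKM held 36.7% of the counts, the 441 at 100 to 1000 FPKM held 24.2%, the 3133 at 10 to 100 FPKM held 25.7%, and the 7617 at 1 to 10 FPKM held 12.7%. Below 1 FPKM stood 4775 genes, of which 751 had a mean under 0.1 FPKM and 9 had no count in any of the 6 libraries. The 16035 listed genes are not all annotated genes. These numbers and the median gene therefore describe the listed genes alone, and silent genes of the liver are not counted by them. Gene models were shorter among abundant genes, with a median of 1530 bases at or above 1000 FPKM and 3281 bases over all.

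The 7 classes of plasma and secreted carrier proteins, 226 genes or 1.41% of those listed, took 29% ± 0.96 of the counts. Their share was 30.7, 28.1 and 28.6% in the 1-month libraries and 29, 28.2 and 29.2% in the 3-month libraries. Albumin and other carriers held 13.4% ± 0.70, apolipoproteins and lipoprotein assembly 5.25% ± 0.19, clade A serpins 3.03% ± 0.51, coagulation and fibrinolysis 2.86% ± 0.24, complement 1.86% ± 0.16, major urinary proteins 1.52% ± 0.40 and acute phase proteins 1.02% ± 0.23. The apolipoproteins were the steadiest of the 7, with a CV of 3.58%, and the major urinary proteins the least steady, with 26.3%. By FPKM in place of counts, complement held 1.03% and major urinary proteins 3.02%, which reverses their order. Classes were assigned by gene symbol, and 31.3% ± 1.03 of the counts lay in named genes outside every class.

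Among the metabolic classes, the urea cycle and amino acid catabolism held most, 6.26% ± 0.81. Its share was 7.64% in 1-month replicate 1 and 5.31 to 6.62% in the other 5 libraries. Cps1 led the class, followed by Arg1 (arginase, the last step of the urea cycle) at 1875 ± 346 FPKM, Hpd (tyrosine breakdown) at 1755 ± 306 FPKM and Tat (the first step of tyrosine breakdown) at 1308 ± 506 FPKM. Tat was at 2117, 1285 and 1693 FPKM in the 1-month libraries and at 880, 1044 and 831 FPKM in the 3-month libraries. The methionine cycle and one-carbon enzymes took 2.66% ± 0.33, of which Mat1a made up 52.3%.

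Fatty acid oxidation, ketogenesis and peroxisomes took 4.10% ± 0.52 of the counts. The most abundant of this class was Cyp4a14, a fatty acid hydroxylase, at 1550 ± 384 FPKM. Lipogenesis, triglyceride and lipid droplet genes held 1.56% ± 0.14. Within it Scd1, the stearoyl-CoA desaturase, ranged from 124 to 304 FPKM. The 23 cholesterol synthesis genes together held 0.12% ± 0.01, the smallest share of any class. Glucose, fructose and glycogen enzymes held 2.40% ± 0.06, with Pck1, a key enzyme of gluconeogenesis, at 1647 ± 250 FPKM.

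Cytochrome P450 families 1 to 3 held 2.14% ± 0.29. Cyp2e1 made up 36.8% of that class, and Cyp3a11, a broad drug-metabolising enzyme, followed at 1940 ± 369 FPKM. The class was at 1.62% in 1-month replicate 1 and at 2.07 to 2.44% in the others. Conjugating and other xenobiotic enzymes held 3.70% ± 0.32, with the glutathione transferase Mgst1 first at 1640 ± 155 FPKM. Bile acid synthesis and transport held 1.03% ± 0.09, led by Cyp8b1, the 12-alpha hydroxylase of bile acid synthesis, at 577 ± 117 FPKM. Mitochondrially encoded genes held 1.36% ± 0.23 of the counts and 2.59% of the summed FPKM. Several mitochondrial messengers and ribosomal RNAs were not analysed here, so this is not the whole mitochondrial share. The class includes mt-Rnr1, whose level may depend on the depletion of ribosomal RNA.

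**Figure D3:**
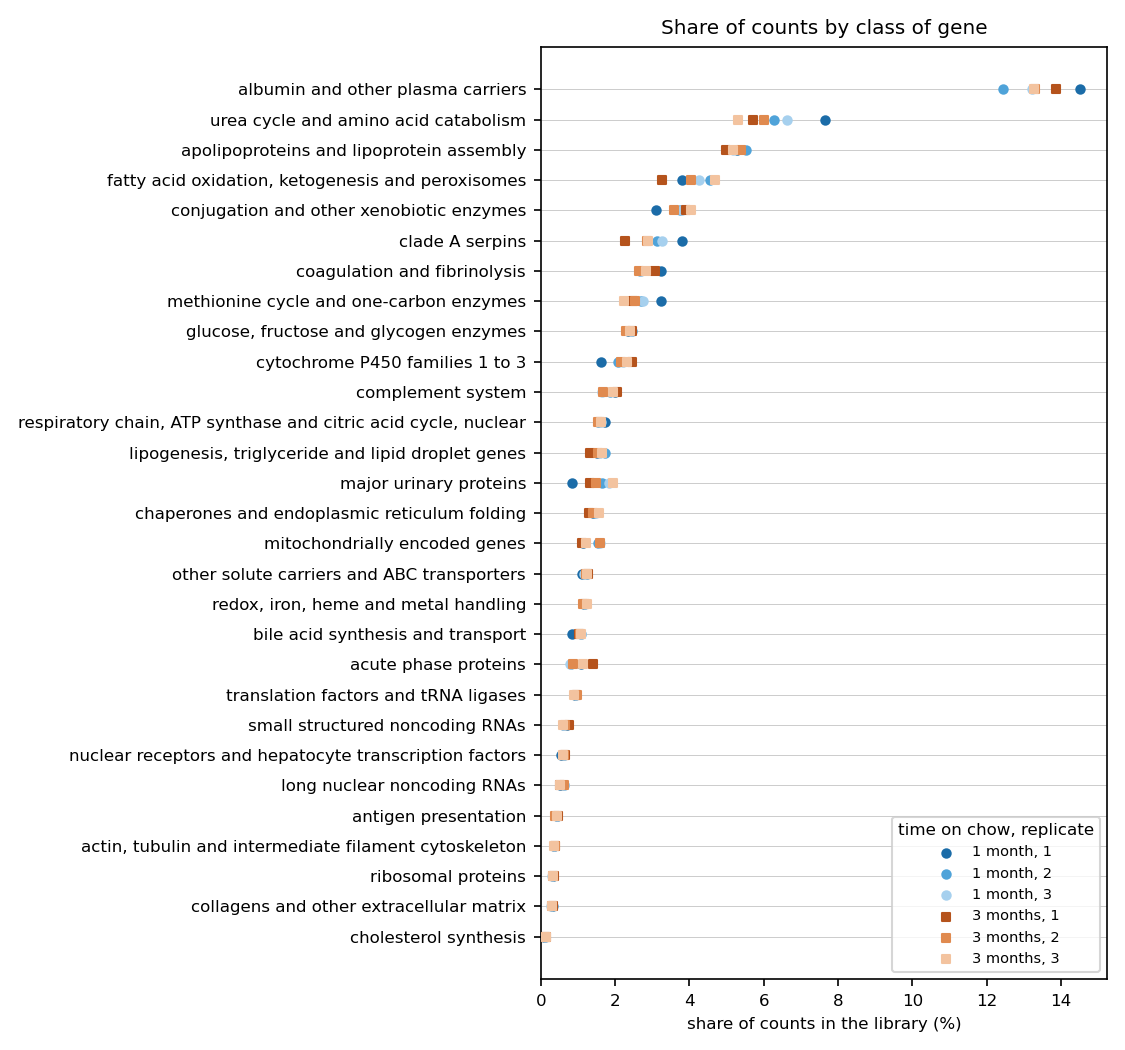
Share of each library's counts (%) in classes of genes, each point a library, with circles for 1 month and squares for 3 months of chow; named genes outside every class and predicted genes are left out. Albumin and other carriers lead at 12.4 to 14.5%, and 1-month replicate 1 is the highest for the urea cycle class and the lowest for major urinary proteins.

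The tissue label was checked against marker genes. Of all 16035 listed genes, 11260 had a mean of at least 1 FPKM, so passing that level says little by itself. All 18 hepatocyte markers were listed above 1 FPKM, from Alb down to the lectin receptor Asgr2 at 95.2 ± 11.6 FPKM, and the transcription factor Hnf4a stood at 157 ± 14.1 FPKM. All 14 Kupffer cell markers were also above 1 FPKM, with Clec4f, a lectin of these cells, at 36.4 ± 4.85 FPKM. Among them C6, at 51.5 ± 8.71 FPKM, is also on the list of male-biased liver genes used below. The sum of the Kupffer cell list was 300 to 332 FPKM in 5 libraries and 414 FPKM in 3-month replicate 1. All 16 sinusoidal endothelial markers passed 1 FPKM, among them Clec4g at 21.2 ± 1.88 FPKM. Of 17 stellate cell markers 15 did, led by the proteoglycan Dcn at 112 ± 17.5 FPKM.

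Of 14 markers of recruited or lipid-associated macrophages, 4 reached 1 FPKM, and 1 of those 4, Spp1 at 20.3 ± 2.85 FPKM, is also on the bile duct list. Trem2, Gpnmb and Itgax, defining genes of that macrophage state, were listed at 0.18 ± 0.07, 0.18 ± 0.10 and 0.20 ± 0.11 FPKM. None of the 8 T and NK cell markers analysed reached 1 FPKM. The 7 kidney markers were not analysed here. Hemoglobin differed between livers, with Hbb-b1 at 175 and 269 FPKM in 1-month replicates 1 and 2 and at 104 to 111 FPKM in the other 4. Of 17 cell cycle genes 4 passed 1 FPKM, the highest being Pcna, the sliding clamp of DNA replication, at 4.32 ± 0.60 FPKM.

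The summed FPKM of 22 pericentral genes was 5120 in 1-month replicate 1 and 7914 to 8886 in the other 5. Without Cyp2e1, which gives much of it, the sum was 2319 in that library and 3231 to 3810 in the others. The 22 periportal genes summed to 41142 there and to 35737 to 40117 elsewhere, and most of that sum is Alb. Without Alb the periportal sums were 14226 and 10090 to 13097, a gap smaller than the spread of the other 5. Single periportal genes differed more. In 1-month replicate 1 Sds was at 454 FPKM against 133 to 241 FPKM in the others. Ass1 was at 605 FPKM there against 254 to 383 FPKM, and Gls2 at 182 FPKM against 87.9 to 131 FPKM. Pigr and Igf1 of the same list were lowest there, at 282 FPKM against 359 to 403 FPKM and at 46.7 FPKM against 51.0 to 57.5 FPKM. Cyp2c37, a pericentral P450, was at 92.7 FPKM in 1-month replicate 1, at 207 and 225 FPKM in the other 1-month libraries and at 309 to 351 FPKM in the 3-month libraries. Near-identical copies in the Cyp2c family make its counts less certain.

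The 20 male-biased genes did not move as a whole in that library. Their sum was 13023 FPKM there, 12321 FPKM in 3-month replicate 1 and 15364 to 18569 FPKM in the other 4. Mup3 and Serpina1e give much of these sums. Serpina1e, a male-biased serpin, was highest in 1-month replicate 1, at 4720 FPKM against 1960 to 3088 FPKM, while several others were lowest there. Other members were lowest in 3-month replicate 1. Selenbp2 was at 29.7 FPKM there and at 34.7 to 107 FPKM in the other libraries, and Slco1a1 at 24.7 FPKM against 28.5 to 80.3 FPKM. Ugt2b38 was at 1.32 FPKM there, against 2.21 to 10.9 FPKM. Mup17, which is not on this list, was at 107 FPKM in 1-month replicate 1 and at 1099 to 1742 FPKM in the other 5. Mup11, which is on it, was at 390 FPKM there against 1160 to 1918 FPKM. Cyp2d9, a P450 more abundant in males, was at 393 FPKM there and at 823 to 1018 FPKM elsewhere. The female-biased list summed to 146 FPKM in that library and to 51.8 to 69.8 FPKM in the others, of which Cyp17a1, a steroid hydroxylase, gave 118 FPKM in 1-month replicate 1. Without Cyp17a1 the sum was 28.7 FPKM in that library and 22.6 to 50.6 FPKM in the others. All 6 libraries held 1708 to 2295 counts of the Y-linked Ddx3y and 3 to 12 counts of Xist. Counts of single Mup genes are uncertain because the copies share long stretches of sequence. Mup3 shared 13.3% of its runs of 50 bases with other loci, against 86.7% for Mup7. The order within the family and the share of its class carry the same limit.

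Spread between livers depended on abundance. Over the 11260 genes with a mean of at least 1 FPKM the median CV was 12.2%, and 90% of them, between the 5th and 95th percentiles, lay between 4.99 and 36.4%. The median was lowest at 10 to 100 FPKM, at 9.72%, and reached 15.3% at or above 1000 FPKM, where the counting error of a typical gene is 0.44%. In the range of 0.1 to 1 FPKM the median was 30.5%, beside a counting error of 24% at the median count. Taken within each month, the median over the 11260 genes was 10.9%. The common biological coefficient of variation within a month, estimated by edgeR from counts, was 0.135, and it was 0.117 without 1-month replicate 1.

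**Figure D4:**
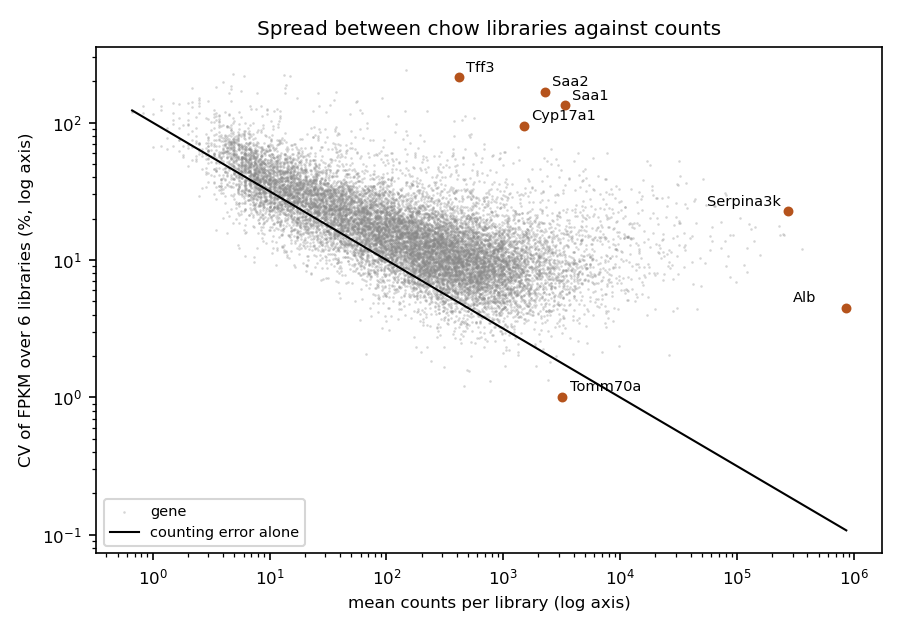
CV of FPKM over the 6 libraries (%, log axis) against mean counts per library (log axis), each grey point a gene with a mean of at least 0.1 FPKM, with the CV that counting error alone gives as a line. Tff3, Saa2 and Saa1 lie far above the line with CVs of 213, 168 and 133%, and Tomm70a lies under it at 1.01%.

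The 12 genes with the highest CV within a month, among genes with a mean of at least 10 FPKM, included an epithelial gene, acute phase genes, lipid and steroid enzymes and small RNA genes. Tff3, a trefoil peptide of mucous epithelia, was at 264 FPKM in 1-month replicate 1 and at 2.66 to 12.4 FPKM in the other 5. Fabp2, also on the list of gallbladder and gut epithelium, stood at 93.4 FPKM in that library and 81.2 to 117 FPKM in the others. Tff2, a further trefoil gene of that list, was at 1.98 FPKM in the same library and at 0 to 0.19 FPKM in the others. Without Tff3 the list summed to 97.6 FPKM there and to 84.2 to 120 FPKM in the others.

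Some markers of other cell types were also highest in 1-month replicate 1. Of the 5 adipocyte markers analysed, Adipoq, a hormone of fat cells, had 27 counts in that library and 0 to 1 in the others, and Cfd, adipsin, was at 10.2 FPKM against 0.29 to 1.26 FPKM. Fabp4, the fatty acid binding protein of fat cells, was at 23.8 FPKM against 7.09 to 11.2 FPKM, while Cidec, also on that list, lay within the range of the others and Lipe was lowest there, at 2.54 FPKM against 3.07 to 3.88 FPKM. The adipocyte list summed to 56.4 FPKM there and to 21.4 to 42.7 FPKM elsewhere. Acta2, the actin of smooth muscle and activated stellate cells, was at 7.39 FPKM against 0.22 to 1.47 FPKM. The bile duct keratin Krt19 was at 1.96 FPKM against 0.21 to 0.87 FPKM, and the list of 13 bile duct markers summed to 35.3 FPKM against 23.3 to 29.6 FPKM. The part of such cells in the values of this library was not tested.

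Saa1 and Saa2, serum amyloid proteins that the liver makes in inflammation, were highest in 3-month replicate 1, at 1165 and 946 FPKM, followed by 3-month replicate 3 at 439 and 215 FPKM. In the other 4 libraries Saa1 was at 26 to 146 FPKM and Saa2 at 10.05 to 72.5 FPKM. Orm2, an acid glycoprotein of the same response, was also highest in 3-month replicate 1, at 68.7 FPKM, and lowest in 3-month replicate 2, at 3.43 FPKM. Saa1 and Saa2 share long stretches, so their counts are uncertain singly. Serping1, the inhibitor of the first complement enzyme, and Cp, ceruloplasmin, which carries copper, had CVs near 4% in the same class.

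A pair of lipid and steroid enzymes also varied. Cyp17a1 ranged from 8.77 to 118 FPKM. Acot3, a peroxisomal thioesterase, was at 21.4 and 28.8 FPKM in 3-month replicates 1 and 3 and at 2.09 to 5.21 FPKM in the other 4. Apoa4, an apolipoprotein outside the 12, showed the opposite order, at 337 and 398 FPKM in those libraries and at 1298 to 1587 FPKM in the others. Gm10680, an antisense gene of which 90% lies within exons of Apoa4, was at 469 and 551 FPKM against 1759 to 2195 FPKM, and without the counted strand the pair cannot be told apart.

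The other genes of the 12 were small RNA genes, among them Mir148a, Mir10a, Mir30d and Mirlet7g. Mature sequences of those with an entry in RefSeq (GRCm38) are shown for the arm usually named as the guide, with the seed, bases 2 to 8, in capitals.
mmu-miR-148a-3p (chr6:51269829-51269850, minus strand): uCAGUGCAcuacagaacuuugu
mmu-miR-10a-5p (chr11:96317186-96317208, plus strand): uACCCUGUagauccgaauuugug
mmu-let-7g-5p (chr9:106178846-106178867, plus strand): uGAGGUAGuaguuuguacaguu
No pair of these shares a seed. The counts come from total RNA libraries and lie on the precursor genes, so they do not measure the mature miRNA.

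Mir148a was at 179, 124 and 618 FPKM in the 1-month libraries and at 159, 730 and 171 FPKM in the 3-month libraries. Mirlet7g was at 51.2, 32.0 and 106 FPKM and at 29.7, 141 and 47.1 FPKM. In both, 1-month replicate 3 and 3-month replicate 2 were the highest. The same 2 libraries were the highest for 15 of the 42 Mir-named genes with a mean of at least 5 FPKM, and for 8 of the 21 that no exon of another listed gene covers. Without Mir148a and Mirlet7g, which drew attention to the pattern, it was 13 of 40, or 32.5%. Over all 5964 genes with a mean of at least 5 FPKM these libraries were the highest for 6.19%. That share was not matched for counts, and many of these short gene models held few. Mir148a held 219 to 1088 counts in a library, but Mir10a 7 to 53 and Mir25 1 to 16. Mir122a, the gene of the miRNA most characteristic of hepatocytes, ranged from 294 FPKM in 3-month replicate 1 to 1664 FPKM in 3-month replicate 2. AL606824.1 has the same counts as Mir10a in every library and is not a separate measurement.

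**Figure D5:**
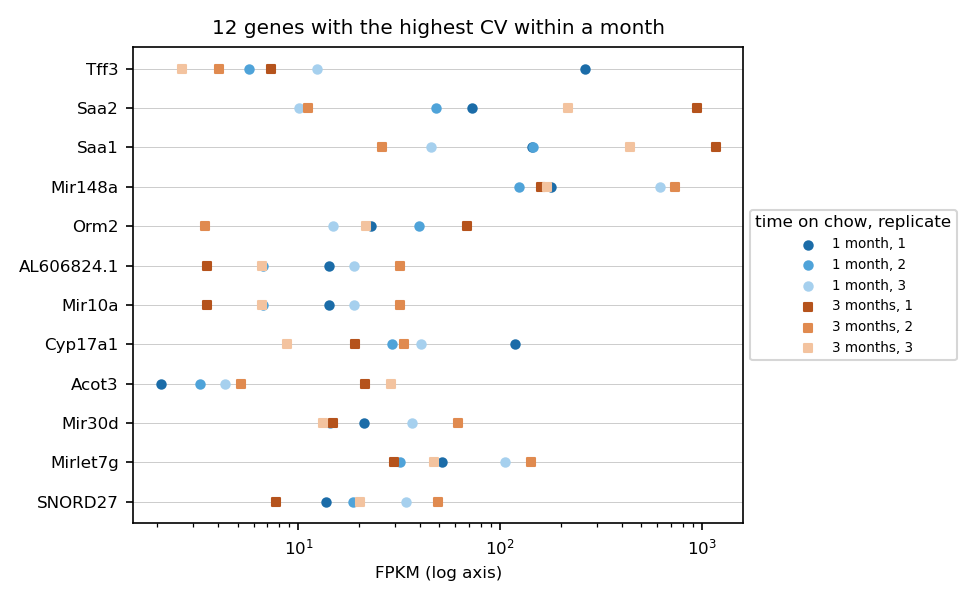
FPKM (log axis) of the 12 genes with the highest CV within a month and a mean of at least 10 FPKM, each point a library, with circles for 1 month and squares for 3 months of chow. Tff3 is high in 1-month replicate 1 alone at 264 FPKM, Saa1 and Saa2 are highest in 3-month replicate 1, and Mir148a is highest in 3-month replicate 2 and 1-month replicate 3.

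The 12 steadiest genes within a month were taken from the low extreme of the 3643 genes with a mean of at least 10 FPKM. The CV of Tomm70a lay under what counting error alone gives. The part of chance in such small spreads was not tested. Tomm70a, an import receptor of the outer mitochondrial membrane, was at 33.2, 33.6 and 33.1 FPKM in the 1-month libraries and at 33.7, 32.8 and 33.6 FPKM in the 3-month libraries. Immt, which shapes mitochondrial cristae, stood at 29.1 ± 0.39 FPKM, Mrps7, a mitochondrial ribosomal protein, at 30.1 ± 0.79 FPKM, and Tmbim4, a membrane protein of the Golgi, at 18.5 ± 0.24 FPKM. Pbld2 was steady within each month, at 44.9 to 46.8 and at 58.1 to 59.0 FPKM. It was taken for its small spread within the months, which were not tested against each other.

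Some genes in common use as references were listed very low. B2m, the light chain of class I antigens, reached 1247 ± 66.7 FPKM, Eef1a1, a translation elongation factor, 623 ± 68.5 FPKM and Actb, beta-actin, 175 ± 25.3 FPKM. Gapdh, the glycolytic enzyme, was listed at 2.08 ± 0.53 FPKM and Ppia, cyclophilin A, at 1.37 ± 0.35 FPKM. These last 2 were chosen for naming after their values were seen. The annotation holds 213 pseudogene loci that share at least 1 run of 50 bases with Gapdh and 36 that do so with Ppia. Among ribosomal protein genes the median level was 52.7 FPKM for 8 genes with at most 1 such locus, 17.1 FPKM for 19 genes with 2 to 5, 13 FPKM for 23 genes with 6 to 10, and 4.85 FPKM for 30 genes with 11 or more. Over all protein-coding genes the medians of the same bins were 3.27, 3.77, 2.50 and 2.10 FPKM, without such an order from the first bin to the second. Eef1a1, at 623 FPKM, is itself among the genes with 11 or more loci. The part of shared sequence in these levels was not tested, and the ribosomal protein class, at 0.33% ± 0.02 of the counts, carries the same limit.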

How the data were processed

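Livers were flash-frozen and total RNA was made into stranded TruSeq libraries after Ribo-Zero Gold depletion, per the labels' protocols. The authors deposited raw read counts per gene and FPKM values, on mm10 per the submitters' processing notes. The deposited FPKM equals the count divided by the bases of the gene model and by a total that exceeds the listed counts by under 0.06%. The score column that the authors deposited as Total BPs gives those bases per the file headers. Which aligner, counter and strand setting were used is not given in the sources used here.

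Values of the 6 chow libraries were described without a contrast. Of 16035 identifiers 15306 matched GENCODE M21. Shares are percent of listed counts, and the widest 95% Wilson interval of a class share or of Alb in a library is ± 0.0245 percentage points, for counting error only. Spread was estimated as the CV of FPKM and as the common dispersion of edgeR 4.0.16 in R 4.3.3, with TMM scaling, filterByExpr and month means, and DESeq2 1.42.0 size factors as an alternative. The dispersion code was tested on simulated data. Exon overlaps used bedtools 2.31.1, and tables and figures used Python 3.11.15, pandas 2.3.3 and matplotlib 3.10.9. Sequences are from RefSeq on GRCm38.p6.

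The rule for naming genes took the 30 highest by FPKM, the 10 highest by counts, up to 6 members of each class or list, members under 0.1 FPKM, the 12 highest and 12 lowest CVs within a month among genes of at least 10 FPKM, and the 10 largest differences of rank among the first 200. Some genes that it names are not reported here. Genes outside it are given as members of a list, or said to be chosen after their values were seen. Members, classes and lists were chosen with earlier results of these data known.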

Additional observations from a re-analysis of the deposited data

Results flagged for a closer look

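Of 57 class shares and marker list sums over the 6 libraries, 5 had 1 library whose gap to its nearest neighbour relative to the whole range exceeded the 95% critical value of Dixon's test for 6 samples. Chance alone gives such a gap in about 1 of 20 groups. In 4 of the 5 the library was 1-month replicate 1. Its share of counts in bile acid synthesis and transport was 0.85%, against 1.02 to 1.08% in the others. Its pericentral sum was 5120 FPKM, against 7914 to 8886 FPKM. Its female-biased sum was 146.5 FPKM, against 51.8 to 69.8 FPKM, and its sum for gallbladder and gut epithelium was 361.2 FPKM, against 91.5 to 125 FPKM. Each of these last 2 sums rests on 1 gene. Without Cyp17a1 the female-biased sum was 28.7 FPKM against 22.6 to 50.6 FPKM, and without Tff3 the epithelium sum was 97.6 FPKM against 84.2 to 120 FPKM. The pericentral sum without Cyp2e1 was still lowest in 1-month replicate 1, at 2319 FPKM against 3231 to 3810 FPKM. Its gap was then 0.611 of the range, under the critical value, so this flag also depends on its leading gene. The Kupffer cell sum was 413.6 FPKM in 3-month replicate 1 and 300 to 332 FPKM in the others. Neither the Kupffer cell sum nor the bile acid share was checked without its leading gene. Among single genes with a mean of at least 10 FPKM, 232 of 3643, or 6.37%, had such a gap.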

How the results depend on the processing

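The common biological coefficient of variation, 0.135, was 0.151 with 1 mean for all 6 libraries, 0.123 in the 3-month libraries alone, and 0.117 to 0.144 when each library was left out. It was 0.128 with the replicate number as a block. The numbers only name samples, so this pairing has no basis in the labels. The median CV, 12.2%, was 10.2% in the 1-month libraries alone, 9.85% in the 3-month libraries alone, 11.3% after TMM scaling, 10.9% within months, 15.8% with no filter on low values, 9.93% over genes of at least 10 FPKM, and 11.3 to 12.4% when each library was left out. By FPKM in place of counts, 61 genes held 50% of the total instead of 168, and the plasma protein classes held 31.5% instead of 29%.

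Genes at or above 1 FPKM numbered 10379 to 11373 under the alternatives in FPKM, against 11260. At 1 TPM there were 12973 genes and at 1 CPM 13004. After the data were seen, genes whose exons overlap another listed gene were left out. This gave 114 genes for 50% of the counts and 29.6% for the plasma protein classes, and leaving out only the gene listed as Srprb that overlaps Trf gave 29.4%. Leaving out a library cannot move a mean of 6 by its SD, so it is no check of the class shares. With FPKM in place of counts, 27 of 31 class shares moved by more than their SD. By counts, 18 of the 30 genes highest by FPKM were among the first 30. Depth limits genes under 1 FPKM, and 3 livers a month limit every SD.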
